A study of Mus musculus with 4 samples.

Results

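The genes described here are the motile cilia axoneme genes of the mouse, taken from the count table as the protein-coding rows whose symbol starts with Dnah, Dnai, Dnal, Dnaaf, Cfap, Rsph, Tekt or Drc followed by a number (or, for Dnali1, a letter), together with Foxj1, Tppp3, Dynlrb2, Ccdc113, Tmem212, Spag6l, Spag16, Spag17 and Hydin. The rule found 92 genes among the 56748 rows of the table, 21970 of which are protein-coding. No measured value entered the rule.

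The data are bulk RNA sequencing counts from 4 libraries, 2 per group, of lungs carrying metastases of 4T1, a mouse triple-negative breast cancer cell line. Female BALB/cJ mice, 7 weeks old when injected, received luciferase-tagged 4T1 cells through the tail vein and were treated for 3 weeks once metastases were seen. The saline group received saline (the labels name it a PBS control). The cmLumiOpto/PARPi group, called treated below, received an AAV gene vector packed in exosomes that carry an antibody to CD276, a surface protein of the tumour cells, with the luciferase substrate ViviRen, and the PARP inhibitor olaparib in drinking water. The vector encodes a light-emitting luciferase and a light-gated channel of the mitochondrial inner membrane, and the antibody directs it to CD276-bearing cells. All mice carried the same injected line and no library is labelled as a lung without tumour. The sources differ on the tissue, since the labels describe harvested tumour cells and the study's methods describe lung tissue with metastases. Transcripts listed as markers of both kinds of cell were present, but no transcript particular to 4T1 cells was read. The 12 genes of a mammary keratin and proliferation list summed to between 3602 and 4809 CPM (read counts relative to the total of the library, scaled by TMM), and Sftpc, the surfactant protein C gene of alveolar type 2 cells, stood between 176 and 6153 CPM. In such bulk samples, fewer cells of a type and less RNA per cell cannot be told apart.

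A motile cilium is a beating hair on the surface of a multiciliated cell, and in the lung such cells line the airways and move mucus. Its core, the axoneme, is a ring of doublet microtubules around a central pair. Outer and inner dynein arms on the doublets are the motors, radial spokes and the central apparatus pass signals to them, the nexin-dynein regulatory complex links neighbouring doublets, and tektins and other inner proteins stiffen the doublet wall. The arms are put together in the cytoplasm by assembly factors. FOXJ1 and the RFX transcription factors switch this gene set on.

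The promoters of these genes are shown first, because the RFX factors bind a sequence called the X-box. An X-box is here a degenerate pattern of paired arms facing each other with at most 3 bases between them, so that an arm need not be the exact core GTTGCC. The first arm is GTNNCC with A or G as the fourth letter, and the other, read on the opposite strand, is GTTNCN with A or G as the fourth and C or T as the last letter. RefSeq promoter windows (250 bases before to 50 after the start, GRCm38.p6) were matched for 70 of the 92 genes. An X-box on either strand was found in 14 of these 70 genes (20%), compared with 1.75% of the 27025 genes of the promoter table. The exact core GTTGCC, which can lie inside an X-box, was found in 30 of the 70 (42.9%, against 14.1% of all genes), and the forkhead core TGTTTA in 15 (21.4%, against 15.1%), both searched on both strands. A match shows only that the letters are present. Each line below gives the 120 bases before an annotated start for genes with an X-box, in the direction of transcription, 5′ to 3′, with the X-box in capitals. The first 4 genes were higher in both treated libraries and the last 3 overlapped between the groups, so that the motif can be read beside both kinds of outcome.
Dynlrb2, chr8:116504895-116505014, plus strand: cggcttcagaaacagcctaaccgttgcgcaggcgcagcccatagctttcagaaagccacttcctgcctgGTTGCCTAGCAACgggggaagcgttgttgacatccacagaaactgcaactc
Spag16, chr1:69826850-69826969, plus strand: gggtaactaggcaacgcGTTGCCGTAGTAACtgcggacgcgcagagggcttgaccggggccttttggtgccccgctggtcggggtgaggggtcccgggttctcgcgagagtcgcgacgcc
Hydin, chr8:110266857-110266976, plus strand: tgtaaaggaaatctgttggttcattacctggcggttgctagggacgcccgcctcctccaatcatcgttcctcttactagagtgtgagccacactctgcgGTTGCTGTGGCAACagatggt
Cfap44, chr16:44394679-44394798, plus strand: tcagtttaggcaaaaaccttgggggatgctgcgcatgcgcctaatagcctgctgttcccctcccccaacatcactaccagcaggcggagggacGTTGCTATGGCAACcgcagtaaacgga
Cfap298, chr16:90934850-90934969, minus strand: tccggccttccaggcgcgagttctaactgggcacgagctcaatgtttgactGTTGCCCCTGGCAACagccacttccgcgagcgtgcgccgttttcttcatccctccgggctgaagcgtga
Cfap45, chr1:172521010-172521129, plus strand: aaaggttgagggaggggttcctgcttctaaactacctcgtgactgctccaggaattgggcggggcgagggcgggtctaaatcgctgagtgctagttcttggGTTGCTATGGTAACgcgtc
Tekt2, chr4:126325689-126325808, minus strand: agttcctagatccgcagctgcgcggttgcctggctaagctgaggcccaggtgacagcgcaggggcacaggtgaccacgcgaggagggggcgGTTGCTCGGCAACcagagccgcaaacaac

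The capitals of Hydin, Cfap44 and Cfap45 begin 21, 27 and 19 bases before the start, and those of Spag16 begin 103 bases before it. Of the 14 genes with an X-box, 7 were higher in both treated libraries than in both saline libraries, 1 was lower, 5 overlapped and 1 had no count. Of the 56 genes with a window and no X-box, 32 were higher, 2 lower, 19 overlapped and 3 had no count. Over all protein-coding genes with a count, 25.4% were higher and 25.5% lower.

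The 92 genes took few of the reads. They held 5631 and 5475 counts of the 16086720 and 15263375 in the saline libraries, and 8225 and 6922 of the 16755228 and 16509603 in the treated ones. Dnaaf4, Dnaaf6, Cfap97d1 and Rsph6a, 4 of the 92, had 0 counts in all libraries. In saline library 1, 61 genes reached 3 counts, and in saline library 2 only 45 did, against 85 and 80 in treated libraries 1 and 2. A count of 0 allows up to 3 counts, which is between 0.173 and 0.204 CPM per library, and these limits cover counting error only.

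Most of the genes were higher after cmLumiOpto/PARPi. In 54 of the 92 genes each treated library exceeded each saline library, in 3 (Dnaaf5, Rsph3a and Rsph3b) each was lower, and 31 overlapped. Among the 16701 protein-coding genes with a count in any library, 25.4% were higher and 25.5% lower by the same rule. With 2 libraries per group no single gene can reach significance by permutation, since the smallest two-sided exact p is 0.33.

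**Figure D1:**
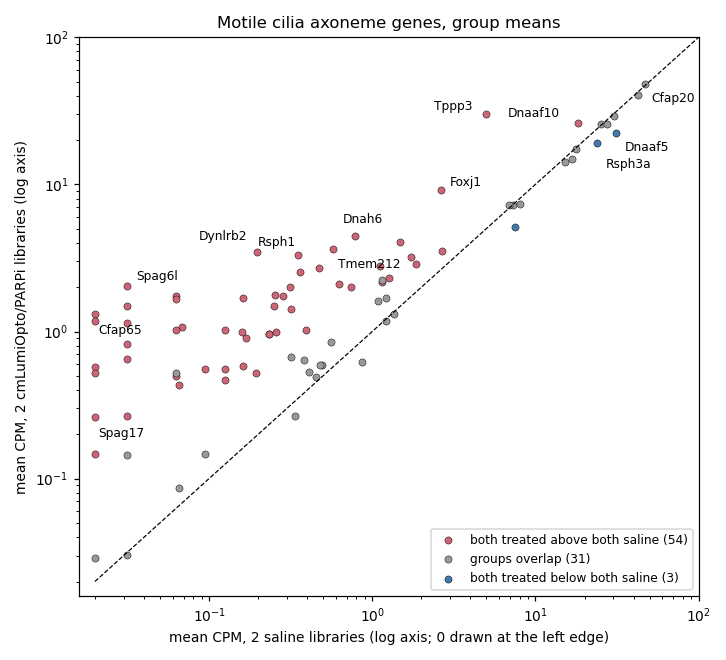
Mean CPM of each gene with a count in the 2 saline libraries (horizontal, log axis) against the 2 cmLumiOpto/PARPi libraries (vertical, log axis), 1 point per gene, with genes at 0 in saline drawn at the left edge and the dashed line at equal levels. The 54 genes higher in both treated libraries spread above the line, mostly at low levels. Of the 12 genes with a mean of at least 10 CPM, 8 overlap between the groups and lie near the line, such as Cfap20, while Tppp3 and Dnaaf10 lie above it and Dnaaf5 and Rsph3a below.

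No gene passed the main test. With the quasi-likelihood test of edgeR, adjusted by Benjamini-Hochberg over 15167 genes, 0 genes and 0 of the 57 axoneme genes tested had an adjusted p under 0.05 (0% of all tested genes in either direction). The smallest adjusted p of all genes in this test was 0.138, the rounded value of several axoneme genes too. At an unadjusted p under 0.05, 24 of the 57 were higher and 1, Dnaaf5, was lower, against 9.21% and 12% of all tested genes. The filter kept genes with enough counts in the group where they are high, so a gene near 0 in saline was tested only if it was high after treatment, and counts over the 57 are a description, not support. By order of the libraries, 35 of the 57 were higher and 3 lower, against 27.4% and 27.8% of all tested genes. The other 35 genes were too low to be tested. Other tests on the same counts did call axoneme genes: edgeR's exact test and likelihood ratio test each called 17 of 57 higher, the same 17, where 2.12% and 2.27% of all genes were called higher, and DESeq2 called 5 of 57 (Dnah6, Dynlrb2, Rsph1, Tmem212 and Tppp3, with 31 of the 57 left without an adjusted p), where 2.14% were. None of these called an axoneme gene lower, where 3.25%, 3.44% and 4.52% of all genes were called lower. Without a filter on low counts, the quasi-likelihood test called 24 of the 88 genes with a count higher and 0 lower, against 3.67% and 4.19% of all genes.

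Genes higher after treatment were more frequent at low levels. Of the 12 genes with a mean of at least 10 CPM, 2 were higher (Tppp3 and Dnaaf10), 2 lower (Dnaaf5 and Rsph3a) and 8 overlapped. Their median log2 fold change was −0.06, the same as for all coding genes of that level, of which 23.9% were higher and 35.4% lower. Of the 29 genes between 1 and 10 CPM, 20 were higher and 1 lower, where 33.8% of coding genes were higher and 13.6% lower. Of the 47 genes above 0 and under 1 CPM, 32 were higher and 0 lower, where 22.2% of coding genes were higher and 9.9% lower. The summed level of the abundant class was 287 and 314 CPM in saline and 316 and 310 CPM after treatment, although within it Tppp3 alone went from a mean of 4.96 to 29.9 CPM. The middle class summed to 55.8 and 53.5 CPM in saline and to 112 and 81.2 CPM after treatment. The lowest class summed to 10.7 and 5.59 CPM against 45.4 and 25 CPM. Treated library 1 had the highest sum in each of the 3 classes, and saline library 2 the lowest in the 2 lower classes.

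**Figure D2:**
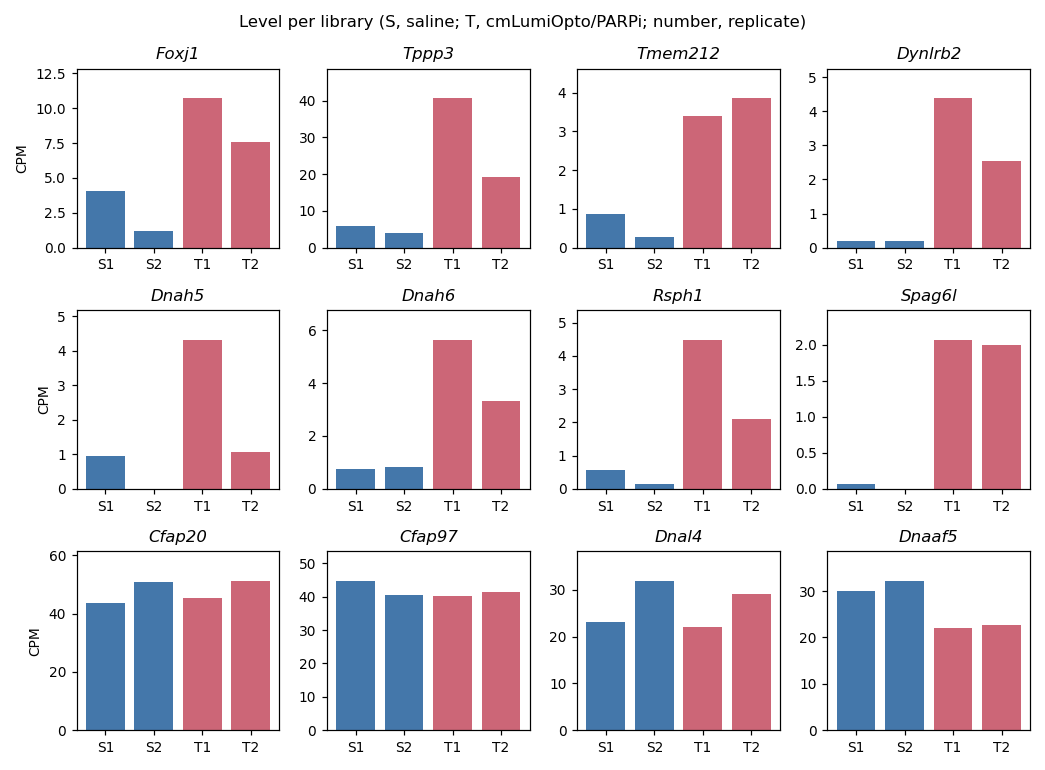
CPM of 12 of the axoneme genes in each library, 1 panel per gene with its own axis from 0, where bars S1 and S2 are the saline libraries and T1 and T2 the cmLumiOpto/PARPi libraries. In the 8 panels of the upper rows both treated bars stand above both saline bars, for Tppp3 at 40.6 and 19.1 against 5.89 and 4.02 CPM, while in the lowest row Cfap20, Cfap97 and Dnal4 overlap and Dnaaf5 is lower after treatment.

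Foxj1, the master regulator of motile ciliogenesis (chr11:116330704-116335399), stood at 4.08 and 1.16 CPM in the saline libraries and at 10.7 and 7.58 CPM in the treated ones. The groups did not overlap, and the saline libraries differed from each other more than the treated ones in proportion. The means were 2.62 ± 2.06 and 9.14 ± 2.21 CPM (SD, n = 2 each), a log2 fold change of 1.80 ± 0.60 (SE) with an edgeR unadjusted p of 0.0251 and an adjusted p of 0.188. The saline libraries decided its size, since the log2 fold change was 2.96 without saline library 1 and 1.15 without saline library 2. Tppp3, a tubulin-binding protein abundant in ciliated cells (chr8:105467493-105471526), had 5.89 and 4.02 CPM in saline and 40.6 and 19.1 CPM after treatment. Both treated libraries were several times above saline, with a log2 fold change of 2.59 ± 0.43 and an edgeR adjusted p of 0.138. Tmem212, a membrane protein found in ciliated cells, stood at 0.878 and 0.273 CPM in saline and at 3.40 and 3.85 CPM after treatment. Here the treated libraries were close together and far from both saline libraries, with a log2 fold change of 2.63 ± 0.62 and an edgeR adjusted p of 0.138.

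The dynein heavy chains are the motor subunits, encoded by very long genes. Of the 5 outer arm heavy chains 3 were higher, and of the 10 inner arm heavy chains 5 were higher, with the rest overlapping and none lower. By the same order 25.4% of protein-coding genes with a count were higher and 25.5% lower. These shares also stand beside the counts of the other roles below. Dnah5, the outer arm chain often mutated in primary ciliary dyskinesia (chr15:28203752-28472052), had 0.941 and 0 CPM in saline and 4.32 and 1.08 CPM after treatment. Its lower treated library was barely above its higher saline library, and the log2 fold change of 2.48 ± 1.28 had an edgeR unadjusted p of 0.102. It was 1.16 without treated library 1 and, with no saline count then left, 8.45 without saline library 1, a value set by the prior count. Dnah9, another outer arm chain, had 0.627 and 0 CPM in saline and 2.07 and 1.93 CPM after treatment. Dnah8 and Dnah17, the remaining outer arm chains tested, are best known from sperm tails. Dnah8 ranged from 0.613 to 1.57 CPM in saline and from 0.662 to 2.53 CPM after treatment, and Dnah17 from 0.753 to 1.98 CPM and from 1.02 to 1.61 CPM. Both overlapped between the groups.

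Dnah6, an inner arm heavy chain (chr6:73017606-73221651), stood at 0.753 and 0.818 CPM in saline and at 5.64 and 3.31 CPM after treatment. The gap between the groups was wider than the gap within either, with a log2 fold change of 2.50 ± 0.49 and an edgeR adjusted p of 0.138. Dnah2 stood at 1.63 and 0.818 CPM in saline and at 1.78 and 1.62 CPM after treatment, and Dnah1 at 1.13 and 0.613 CPM against 0.518 and 0.722 CPM. Those inner arm chains overlapped, with log2 fold changes of 0.47 ± 0.54 and −0.49 ± 0.62. Dnah12 had no count in saline and 38 and 3 counts in the treated libraries, at least 6.03-fold higher when saline is set at 3 counts per library. Treated library 1 carried nearly all of it. Dnah7a also had no count in saline, but Dnah7a, Dnah7b and Dnah7c are close copies whose reads the counting may have split, and their separate values are uncertain.

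Among the 8 intermediate and light chains, 5 were higher and 3 overlapped. Dynlrb2 (chr8:116504974-116515915), a roadblock light chain used in cilia, had 3 counts in each saline library and 76 and 42 counts in the treated ones, or 0.188 and 0.204 CPM against 4.38 and 2.53 CPM. This was a clear separation, with a log2 fold change of 4.09 ± 0.61 and an edgeR adjusted p of 0.138. Its paralog Dynlrb1, which serves cytoplasmic dynein, stood at 102 and 115 CPM in saline and at 109 and 121 CPM after treatment, and the groups overlapped. Dnai1, an outer arm intermediate chain, had 1 count in saline and 28 after treatment, a ratio of 25.2 (95% exact counting interval 4.17 to 1031). Dnai2, its partner in the same arm, stood at 3.26 and 2.11 CPM in saline and at 3.57 and 3.43 CPM after treatment, higher by a margin smaller than the saline spread. The abundant light chains Dnal1 and Dnal4 overlapped, at 12.8 to 15.7 CPM and 22.1 to 31.9 CPM over the 4 libraries.

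The 11 assembly factors were split: 5 were higher, 1 lower, 3 overlapped and 2 had no count, and the summed level was 1.02 times that of saline. Dnaaf5 (chr5:139150223-139186510), a HEAT-repeat factor that helps fold dynein arms, stood at 30 and 32.2 CPM in saline and at 22 and 22.6 CPM after treatment. Both treated libraries were lower by about the same amount, with a log2 fold change of −0.48 ± 0.16, an edgeR unadjusted p of 0.0266 and an adjusted p of 0.191. Dnaaf10 went the other way, at 19.4 and 17.1 CPM in saline and 24.9 and 27.0 CPM after treatment (log2 fold change 0.51 ± 0.18, edgeR adjusted p 0.201). Dnaaf9 stood between 24.2 and 26.8 CPM in all 4 libraries and did not separate the groups.

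In the nexin-dynein regulatory complex 3 of 3 genes were higher in both treated libraries, as were the 3 regulator and marker genes above. Drc1, its scaffold subunit, had 0.439 and 0.0681 CPM in saline and 2.19 and 1.32 CPM after treatment, a log2 fold change of 2.73 ± 0.83 (edgeR adjusted p 0.171). Drc3 stood at 1.94 and 1.5 CPM against 4.26 and 2.17 CPM. For Drc7 there were 2 counts in saline and 35 after treatment, a ratio of 15.8 (95% exact counting interval 4.05 to 135). The low saline counts make the last ratio the least certain of these.

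Of the 11 radial spoke genes, 6 were higher, 2 lower, 2 overlapped and 1 had no count. Rsph1, a spoke head protein (chr17:31255019-31277383), stood at 0.564 and 0.136 CPM in saline and at 4.49 and 2.11 CPM after treatment, with a log2 fold change of 3.19 ± 0.77 and an edgeR adjusted p of 0.142. Leaving out 1 library moved that log2 fold change to between 2.51 and 4.51, the highest without saline library 1. The spoke head genes Rsph4a and Rsph9 were also higher in both treated libraries. In the spoke stalk pair Rsph3a and Rsph3b both treated libraries were lower, with Rsph3a at 22.1 and 25.5 CPM in saline and 18 and 20 CPM after treatment. Rsph3b stood at 6.08 and 8.93 CPM against 5.41 and 4.93 CPM. These genes are near-identical copies, so the split of reads between them is uncertain, and their log2 fold changes of −0.33 ± 0.19 and −0.54 ± 0.33 had unadjusted p of 0.135 and 0.155 in edgeR.

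The central apparatus had 9 of 13 genes higher and 4 overlapping. Hydin, a very large central pair protein (chr8:110266977-110610253), had 4 and 1 counts in saline and 23 and 11 counts after treatment, or 0.251 and 0.0681 CPM against 1.32 and 0.662 CPM. Its groups did not overlap, with a log2 fold change of 2.56 ± 0.84 and an edgeR adjusted p of 0.184. Spag6l (chr16:16753016-16829456), the mouse ortholog of human SPAG6, had 1 and 0 counts in saline and 36 and 33 counts after treatment. The treated libraries were alike, and the ratio of pooled counts was 62.2 (95% exact counting interval 10.8 to 2490), with reads that may be shared with its copy Spag6. Spag16 had 4 and 0 counts in saline and 22 and 13 counts after treatment (log2 fold change 2.92 ± 1.05, edgeR adjusted p 0.205). Spag17 had no count in saline and 6 and 3 counts after treatment, at least 1.34-fold higher over 3 counts per saline library, which leaves its size nearly unknown. Cfap65 had no count in saline and 35 and 10 counts after treatment, at least 6.67-fold higher. Cfap74 stood at 1.13 and 1.09 CPM against 3.57 and 1.99 CPM (log2 fold change 1.32 ± 0.50, edgeR adjusted p 0.219). Cfap69, by contrast, stood at 4.45 and 10.1 CPM in saline and at 6.85 and 7.58 CPM after treatment, and the treated values lay between the saline ones.

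Among the 7 docking and ruler genes, whose proteins set the spacing of arms and spokes along the doublet or anchor them, 5 were higher. Ccdc113 had 0.502 and 0.0681 CPM in saline and 2.07 and 1.38 CPM after treatment (log2 fold change 2.54 ± 0.84, edgeR adjusted p 0.184). Cfap44, a tether of inner arm dynein f, had 2 counts in saline and 60 after treatment, a ratio of 27.0 (95% exact counting interval 7.16 to 228). Cfap43, which works with it, stood at 1.25 and 1.02 CPM against 2.59 and 1.74 CPM. Both partners were thus higher in each treated library, Cfap43 by a smaller factor.

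Of the 12 tektins and doublet inner proteins, 7 were higher and 5 overlapped. Tekt1 stood at 0.564 and 0.0681 CPM in saline and at 1.21 and 1.62 CPM after treatment, and Tekt4 had 2 counts in saline and 57 after treatment, a ratio of 25.7 (95% exact counting interval 6.79 to 217). Cfap126, a doublet protein known as Flattop, had 1.94 and 1.02 CPM against 4.78 and 3.37 CPM (log2 fold change 1.45 ± 0.49, edgeR adjusted p 0.192). Not all did this: Tekt2 ranged from 0.204 to 0.753 CPM in saline and from 0.518 to 0.662 CPM after treatment. Cfap45 ranged from 1.07 to 1.36 CPM over the 4 libraries, and Cfap20 (chr8:95420249-95434869), an inner junction protein that primary cilia also use, from 43.5 to 51.2 CPM. For Cfap20 the log2 fold change was 0.03 ± 0.16.

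The 9 remaining genes with a Cfap symbol had 3 higher, 5 overlapping and 1 without a count, where 25.4% of coding genes were higher. The most abundant of them, Cfap97, Cfap36 and Cfap410, stood at 40.1 to 44.7, 27.8 to 32.3 and 15.9 to 19.4 CPM over the 4 libraries, and none separated the groups.

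**Figure D3:**
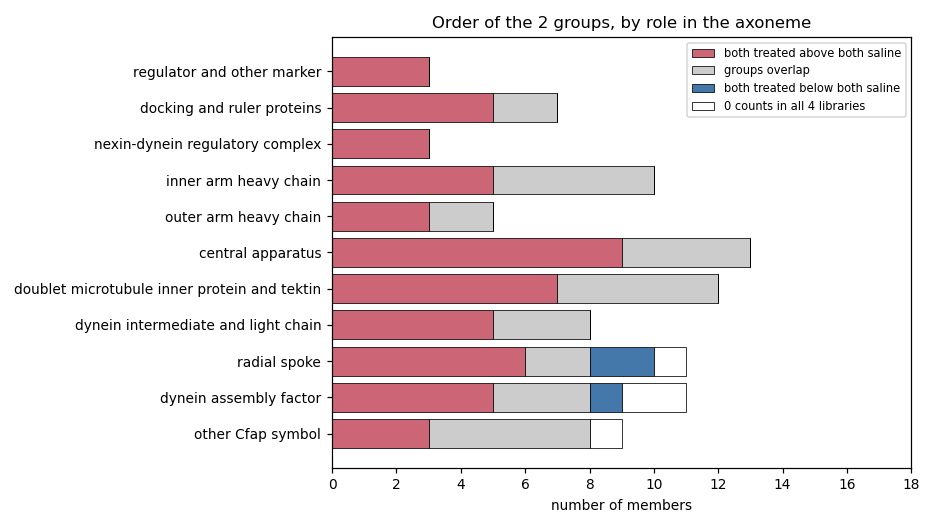
Number of axoneme genes of each role (horizontal axis) whose 2 treated libraries both lie above, both lie below or overlap the 2 saline libraries, or that had 0 counts in all 4. Genes lower after treatment occur among the radial spoke genes (2) and the assembly factors (1), and all 3 genes of the regulator and marker role and all 3 of the nexin-dynein regulatory complex are higher. By the same order 25.4% of coding genes with a count are higher and 25.5% lower.

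Per kilobase of transcript, which allows levels to be compared between genes, Tppp3 had the highest mean level of the 92 genes after treatment, at 16.2 CPM per kb, against 10.8 for Cfap20, 6.35 for Dnaaf5 and 6.21 for Dynlrb2. Other genes lay between Cfap20 and Dnaaf5, such as Dnal4 at 10.7 and Cfap36 at 10.6 CPM per kb. Foxj1 stood at 3.49 CPM per kb and Dnah6 at 0.338 CPM per kb. In saline these genes stood in another order, with Dnal4 at 11.5 and Cfap36 at 11 CPM per kb above Cfap20 at 10.6 and Dnaaf5 at 8.85. Tppp3 at 2.68, Foxj1 at 0.998 and Dynlrb2 at 0.353 CPM per kb stood lower.

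Gene length moved with the fold change in these libraries. Across the 15167 tested genes, which are not independent replicates, Spearman's rho between gene length and log2 fold change was −0.373. The median of the axoneme genes that passed the filter was above that of all genes in each of 5 length classes. A gene near 0 in saline passed the filter only if it was high after treatment, so these medians are a description, not support. In the shortest class (57 to 2093 bases) the 13 axoneme genes tested had a median log2 fold change of 2.54, against 0.31 for all genes, and 10 were higher, where 47.9% of all genes were. In the longest (7273 bases and over) the 15 axoneme genes had a median of 0.96 against −0.27, and 7 were higher, where 10.8% of all genes were. The class of 4923 to 7268 bases was the exception in size, with medians of −0.03 and −0.09 and 2 of 6 genes higher. The 15 heavy chains run from 12009 to 26820 bases, and 8 of them were higher in both treated libraries. The part of RNA quality or library preparation in this length relation was not tested.

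**Figure D4:**
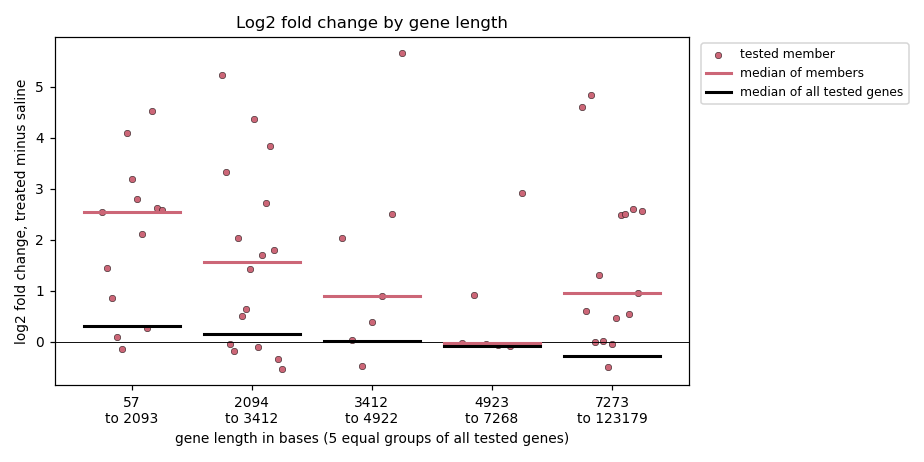
Log2 fold change, treated minus saline, of the 57 tested axoneme genes in 5 classes of gene length (bases), 1 point per gene, with the median of the axoneme genes and of all tested genes as bars. The black bars step down from 0.31 to −0.27 with length and the bars of the axoneme genes lie above them.

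The libraries of 1 group also differed from each other in these genes. Of the 88 genes with a count, 55 were higher in saline library 1 than in saline library 2 and 26 the other way, and 67 were higher in treated library 1 than in treated library 2 and 21 the other way, where 48.7% and 50.5% of coding genes were higher in the first. Across the groups, treated library 2 was above saline library 1 in 67 of the 88 genes and above saline library 2 in 66, and below each in 20, where 46.1% and 49.6% of coding genes were higher. The median log2 fold change of all tested genes was 0.02. For tested coding genes it was 0.29 between 1 and 10 CPM and 0.42 under 1 CPM. The median of the tested axoneme genes, which the filter can raise, was 1.32. It was 0.71 without treated library 1, 2.00 without treated library 2, 2.02 without saline library 1 and 1.17 without saline library 2. The number higher at an unadjusted p under 0.05 was 24 of 57 with all libraries, 12 of 58 without treated library 1 (4.12% of all genes tested there), 30 of 75 without treated library 2 (9.82%), 28 of 79 without saline library 1 (9.2%) and 16 of 79 without saline library 2 (4.22%). More axoneme genes passed the filter in each of these fits. Each of these fits left 1 library in a group, which is assumed to vary like the other group, so the counts are a description.

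Genes of cilia that the symbol rule leaves out were read in the same way, without a test between lists. For comparison, 25.4% of protein-coding genes with a count were higher in both treated libraries and 25.5% lower. In a list of 100 other genes of motile cilia, such as Ccdc39, Zmynd10 and Sntn, 71 were higher in both treated libraries and 2 lower. After the same filter, 27 of the 62 tested were higher and 0 lower at an edgeR unadjusted p under 0.05. The shares of all tested genes were 9.21% and 12%. Genes of intraflagellar transport and the BBSome serve primary and motile cilia alike. Of 47 such genes, 10 were higher and 13 lower, near the shares of all coding genes. Of 26 cytoplasmic dynein and dynactin genes 6 were higher and 9 lower, and their sum was lower in both treated libraries. No gene of any list had an adjusted p under 0.05 in the quasi-likelihood test. As 0 of the 15167 tested genes passed that test, this does not describe the lists. Of 20 regulators of multiciliation other than Foxj1, 5 were higher, near the share of all coding genes, and 2 lower. The 3 most abundant of these also serve dividing cells. Tfdp1 stood at 163 and 178 CPM in saline and at 146 and 166 CPM after treatment, E2f4 at 86.9 and 86.7 CPM against 87.4 and 88.7 CPM, and Plk4 at 55.9 and 58.3 CPM against 48.9 and 50.6 CPM. The RFX factors Rfx2 and Rfx3 overlapped, at 9.38 to 18.2 and 8.60 to 15.3 CPM. Of 12 spermatid genes, another tissue with axonemes, 3 were higher and 2 lower, and their sum stayed between 1.44 and 2.01 CPM.

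Markers of other lung epithelial cells moved with the axoneme genes. The shares of all coding genes with a count were 25.4% higher and 25.5% lower. Of 20 club and secretory cell genes 17 were higher in both treated libraries and 0 lower, and the list summed to 1327 and 164 CPM in saline and to 6222 and 3498 CPM after treatment. Scgb1a1, the secretoglobin that defines club cells, stood at 1088 and 74.7 CPM in saline and at 5305 and 2794 CPM after treatment (log2 fold change 2.80 ± 1.13, edgeR adjusted p 0.235). Cyp2f2, a club cell cytochrome P450, stood at 55.4 and 4.50 CPM against 323 and 132 CPM, and Hp, haptoglobin, at 123 and 53.6 CPM against 279 and 173 CPM. Each had the order of libraries seen for Foxj1, with treated library 1 highest and saline library 2 lowest. Of 14 alveolar type 2 genes 11 were higher and 2 lower, with sums of 2118 and 668 CPM against 9675 and 3423 CPM. Of 12 alveolar type 1 genes 8 were higher and 0 lower, with sums of 851 and 582 CPM against 1615 and 999 CPM.

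The other lists did not all follow, and their counts stand beside the same shares of 25.4% higher and 25.5% lower. Of 8 airway basal cell genes 1 was higher and 2 lower, with sums between 62.8 and 71.8 CPM. Of 7 neuroendocrine genes 2 were higher and 1 lower, with sums of 35.1 and 48.7 CPM against 23.9 and 24.4 CPM. Of 12 tumour epithelium genes 2 were higher and 3 lower, and the treated libraries held both the lowest sum, 3602 CPM, and the highest, 4809 CPM. Of 9 fibroblast genes 1 was higher and 6 lower, with sums of 5184 and 3558 CPM against 1733 and 1934 CPM. Of 10 endothelial genes 4 were higher, with sums of 597 and 469 CPM against 968 and 511 CPM, and of 9 macrophage genes 1 was higher and 1 lower. Of 8 T cell genes 1 was higher, with sums of 55.3 and 21.4 CPM against 108 and 32.9 CPM. Esr1, Pgr and Erbb2 encode the 3 receptors for which this tumour type is called negative. Of these genes 1 was higher and 1 lower, with sums of 107 and 70.3 CPM against 80.4 and 68.8 CPM. The part of the amount of airway or alveolar tissue in each sample in the higher axoneme counts was not tested.

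**Figure D5:**
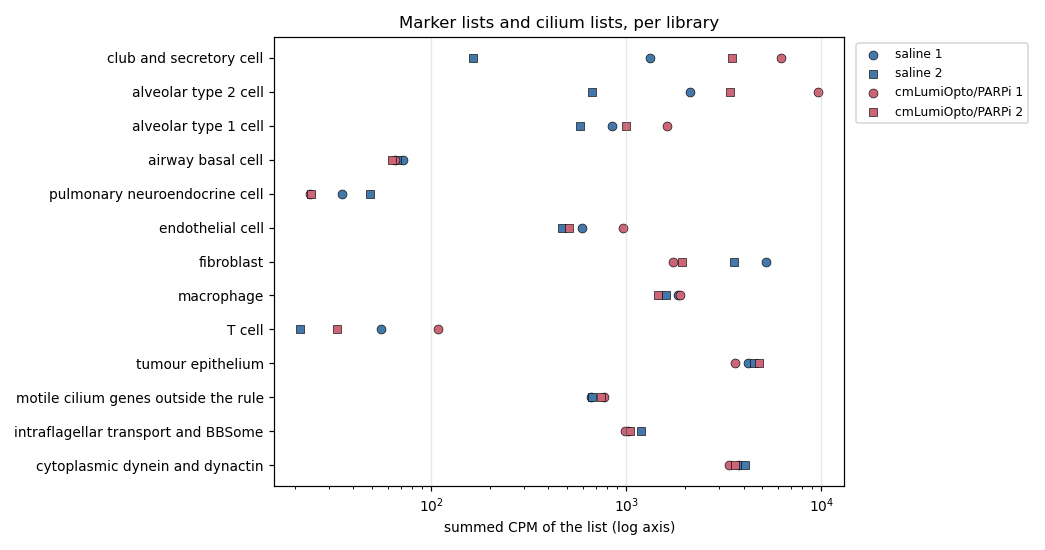
Summed CPM (log axis) of marker lists and cilium lists in the 4 libraries, 1 point per library with colour for group and shape for library. Club and secretory and alveolar type 2 genes are higher in both treated libraries, fibroblast genes lower. The transport genes overlap, and the cytoplasmic dynein and dynactin genes are slightly lower, at 3378 and 3611 against 3789 and 4059 CPM.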

How the data were processed

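Total RNA was taken from 2 saline and 2 cmLumiOpto/PARPi samples, and poly(A) libraries were sequenced by the study. The deposited values are raw counts of reads per gene, made by the authors with HISAT2 on GRCm38 per the study's methods, while the submitters' processing notes name mm39. The gene positions in the table equal those of GENCODE M21 (GRCm38) in only 2.76% of rows, so printed gene positions are those of M21 and not of the table. Totals were 15263375 to 16755228 counts. Libraries of a group differed by more than sampling noise (chi-square over degrees of freedom 26.1 and 44.9) and were kept separate in the tests. Labels do not say how many mice gave each sample, so p-values measure the spread between these samples.

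Genes were filtered (filterByExpr, minimum count 10), scaled by TMM and tested with edgeR 4.0.16 (quasi-likelihood, R 4.3.3) over the whole table. The threshold was an adjusted p of 0.05. CPM values use TMM library sizes, and each SE is the size of the log2 difference over the square root of F. Alternative tests were edgeR's exact and likelihood ratio tests, glmQLFit with legacy=FALSE and DESeq2 1.42.0. Further alternatives were other scalings, no filter, a replicate block and leaving out each library. A loess correction for gene length and mean log2 CPM together (span 0.5) and a ratio of mean CPM (pseudocount 0.5) were also run. A filter on the mean count was added after seeing the data. The scripts were tested on simulated data. Ratios of pooled counts have exact binomial 95% intervals, which cover counting error only. They leave out the differences between libraries of a group and so are too narrow for comparing the groups.

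The genes named were those the rule lists by name, the 3 tested genes of highest mean CPM in each role, any tested gene lower in both treated libraries at an unadjusted p under 0.05, the 3 of highest mean CPM among the regulators and the club cell list, and Dynlrb1. Dnah9, Dnah12, Dnah7a, Dnai1, Cfap65, Tekt1, Tekt2, Tekt4, Rsph4a, Rsph9, Rfx2, Rfx3, Sftpc, Ccdc39, Zmynd10 and Sntn were added after their values were seen, as were the X-box genes printed. The genes and lists were chosen with earlier results of these data known. The identifiers of all 92 genes were found in M21. RefSeq windows were missing for 22 genes. The kit strand setting is not given in the sources used here, so reads of overlapping antisense genes cannot be told apart.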

Additional observations from a re-analysis of the deposited data

How the results depend on the processing

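Of 36 named axoneme genes with a test, 24 kept their direction in each alternative that gave them a value and 12 did not. The loess correction and the ratio of mean CPM were read only as medians, and the mean-count filter left 33 of the 36. Genes past an adjusted p of 0.05 numbered 815 (17 axoneme genes) with the exact test, 865 (17) with the likelihood ratio test, 1011 (5) with DESeq2 and 2000 (24 of 88) without a filter on low counts. Axoneme genes lower at an unadjusted p under 0.05 numbered 0 with the exact test, the likelihood ratio test and upper quartile scaling. The shares of all tested genes lower there were 10.5%, 10.7% and 7.82%. Without the filter, 39 of 88 were higher at an unadjusted p under 0.05 (8.7% of all genes) and 55 were higher in both treated libraries (21.9%), and the median log2 fold change was 1.78, or 1.5 with the 5 genes absent from saline at their lower bound. More low genes enter that fit. The median was 0.98 after the loess correction for gene length and mean log2 CPM together. Same-numbered libraries come from different mice and the labels state no pairing, so the main test did not pair them. Only 2 pairs exist (Spearman rho of their deviations 0.298), and an effect shared by number was not tested. With the number as a replicate block, 1822 of 15167 genes passed. Among them were 15 of 57 axoneme genes, with 0 lower, and the exact test also called 14 of these. At an unadjusted p under 0.05 in that edgeR fit, 29 of 57 were higher and 1 lower, against 14.6% and 15.9% of all genes. Upper quartile scaling moved the median log2 fold change of all genes from 0.02 to 0.13, and library size alone moved it to 0.09. With upper quartile scaling, log2 fold changes turned positive for Cfap69 (0.10), Cfap45 (0.06), Dnal4 (0.01), Dnal1 (0.01), Cfap97 (0.04), Cfap36 (0.06), Cfap410 (0.09) and Dnah17 (0.07). With library size alone this held for Cfap69 (0.06), Cfap45 (0.02), Cfap36 (0.02), Cfap410 (0.05) and Dnah17 (0.03), and with the block for Cfap69 (0.09) and Dnah17 (0.04). The cause was not tested.

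Leaving out 1 library at a time gave 0 to 31 genes past the threshold, with 58 to 79 axoneme genes tested instead of 57. The lone library is assumed to vary like the other group, so the counts are a description. At an edgeR unadjusted p under 0.05, 12 to 30 axoneme genes were higher and 0 lower. The shares of all tested genes there were 4.12% to 9.82% higher and 6.46% to 11.8% lower. By order, 36 to 61 axoneme genes were higher (36.7% to 42.2% of all genes) and 6 to 13 lower (36.6% to 39.4%). Their median log2 fold change was 0.71 to 2.02. Log2 fold changes whose sign changed were those of Cfap20 (−0.10 to 0.14), Dnaaf9 (−0.06 to 0.07), Dnah1 (−0.87 to 0.00), Cfap69 (−0.50 to 0.68), Cfap45 (−0.23 to 0.12), Dnal4 (−0.33 to 0.14), Cfap36 (−0.16 to 0.05), Cfap410 (−0.17 to 0.12), Dnah17 (−0.60 to 0.79), Dnah8 (−0.72 to 1.36) and Dnal1 (−0.25 to 0.03). Of the 47 genes above 0 and under 1 CPM, 7 had no saline count and 17 had 1 to 3, and depth limits the size of their ratios.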
